A study of Rattus norvegicus with 9 samples.

Results

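The 32 genes described here encode the enzymes of glycolysis and gluconeogenesis, the regulators of phosphofructokinase, and the carrier of glucose 6-phosphate. They were taken as every gene probe whose name in the array files equalled one of a list of 32, and 45 probes of the 30367 on the array answered to these names. All 32 genes were found, out of 26115 gene names. A filter on dim spots left 27 of them among 13837 genes tested. Hk3 and the 4 genes Pfkfb1 to Pfkfb4 did not pass it.

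Each array measured the RNA of 1 rat kidney, labelled with the dye Cy3 on a 1-colour Agilent rat array. NP samples (n = 5) were Fisher F344 kidneys taken after 20 min of warm ischaemia and not perfused, by the treatment label. MSC samples (n = 4) were kidneys of the same strain and ischaemia. Belzer solution (BS) with added mesenchymal stromal cells (MSC) was run through them cold, at 4°C, for 4 hrs. The dose was 3 M cells (M for mega) for each of these kidneys. The MSC came from the bone marrow of transgenic Sprague Dawley rats that express EGFP, and RNA of any MSC held in a kidney was read together with its own. The groups therefore differed in perfusion as well as in MSC, and these cannot be told apart here. The titles of the NP samples name perfusion with BS, against their treatment label and the study's methods, and the name NP follows the latter. The age of the rats is not given in the sources used here.

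Glycolysis breaks glucose down to pyruvate in the cytosol, and gluconeogenesis builds glucose from pyruvate, lactate and amino acids. Most steps are reversible and serve both routes. The glycolytic steps of hexokinase, phosphofructokinase and pyruvate kinase run 1 way only. Gluconeogenesis goes around them with enzymes that include phosphoenolpyruvate carboxykinase, fructose bisphosphatase and glucose 6-phosphatase. The kidney holds both routes in different cells: gluconeogenesis belongs to the proximal tubule, while the distal segments and the medulla depend on glycolysis. When oxygen fails, glycolysis is the route that still makes ATP, and lactate dehydrogenase keeps it going.

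The study discarded a further MSC array for poor quality. Between 65.6% and 74.3% of gene spots were well above background on the 9 arrays kept, and no gene spot was saturated. MSC replicate 4 had the lowest share, at 65.6%. It also had the most outlier gene spots, 593, where the other arrays had from 273 to 453. The arrays lay on 2 slides, the first with NP replicates 1, 2 and 3 and MSC replicates 1 and 2, the second with the rest. All 12 markers of proximal tubule, all 6 of thick limb and all 8 of collecting duct passed the filter, so the labelled tissue was borne out by its markers. In the mean log2 intensity of 5 fat markers, centred for each gene, MSC replicates 3 and 4 stood apart at 2.72 and 1.90. The other MSC arrays had -1.37 and -0.02, and the NP arrays ranged from -1.45 to 0.32. Of the 7 fat markers listed, Plin1 and Lep did not pass the filter. Haemoglobin and other red cell markers (3 of 5 passed the filter) ranged from 0.03 to 1.102 on the NP arrays and from -2.49 to 0.55 on the MSC arrays. In whole kidney RNA, fewer cells of a type and less RNA per cell cannot be told apart.

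More members had a higher mean in MSC than in NP kidneys, and no member passed the test. Of the 27 tested, 20 had a higher and 7 a lower mean in MSC. At a false discovery rate (FDR) under 0.05 with a fold over 1.5, limma called 0 of 27 members, and it called 0% of all genes. The study itself reported Tmem52b and Calb1, which are not members, as higher in MSC at these thresholds. Here the smallest adjusted p of all genes was 0.100 from limma. The adjusted p of the members lay between 0.333 and 0.898. At an unadjusted p under 0.05, 10 members were higher in MSC (37.0% of those tested), against 6.57% of all genes tested. At the same threshold 1 member was lower, against 5.10% of all genes. The median log2 fold change of the members was 0.14, and that of all genes was -0.0059. These figures describe genes that passed the filter, and Hk2 passed it through its values on the MSC arrays.

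The count of 10 depended on the signal and normalization, on the probe that stood for a gene and on which kidneys were read. With the brightest probe of each gene it was 8, against 6.27% of all genes. With the processed signal it was 7, against 4.89% of all genes. With scaling to the 75th percentile it was 6, against 4.94% of all genes, and the median log2 fold change of the members was 0.078. That scaling also changed the probes kept for Eno1 and G6pc, to 0.071 and -0.11. Their probes of the main fit gave 0.45 and 0.39 there. Without MSC replicate 4 the count was 6, against 5.08% of all genes. Without both MSC arrays with high fat markers the count was 5, where 3.87% of all genes were higher at that threshold. MSC replicate 4 was the highest MSC array for 11 of 27 members, and NP replicate 2 the lowest NP array for 12. Aldoa, Hk2, Pfkm, G6pc3 and Eno3 had an unadjusted p under 0.05 in each of the 22 alternative analyses that gave a p. The number was 20 of 22 for Eno1, 19 for Pgk1, 14 each for Pkm, Pgam2 and G6pc, and 9 for Ldhb.

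**Figure D1:**
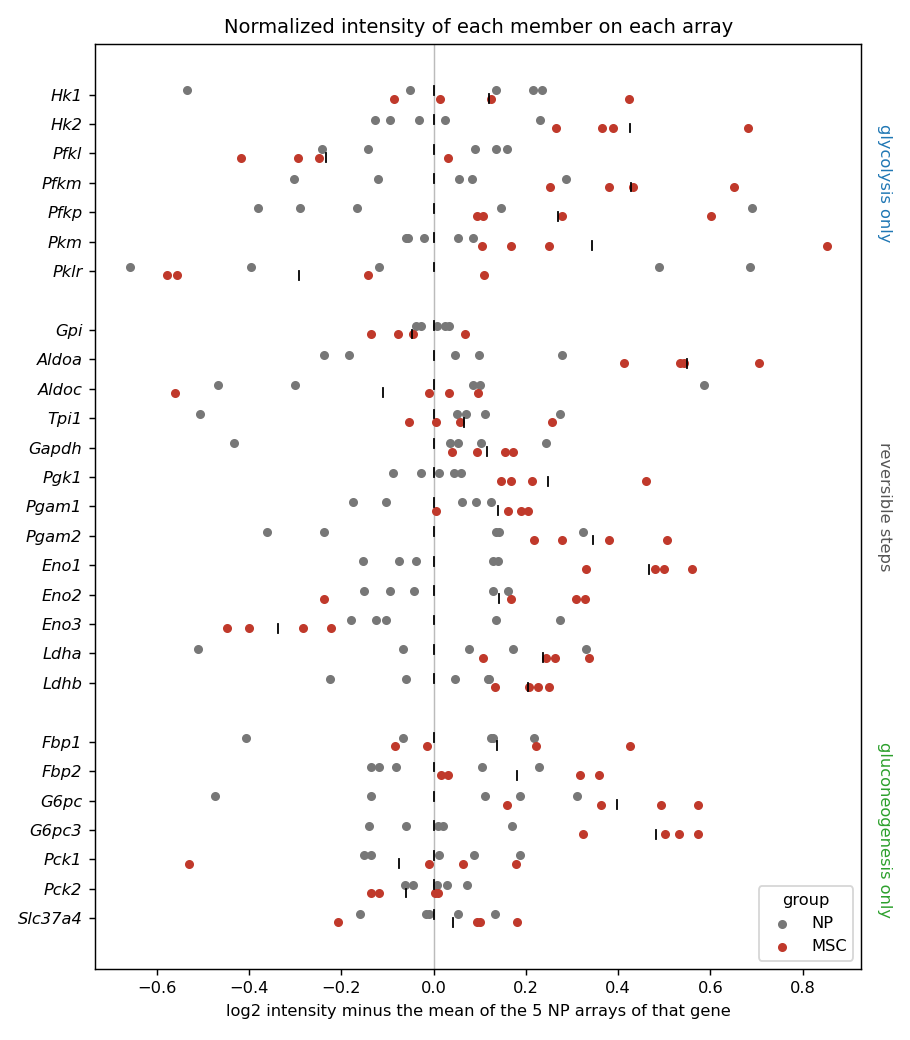
Normalized log2 intensity of the 27 members tested, minus the mean of the 5 NP arrays of the same gene. Each point is 1 array (grey NP, red MSC), each black stroke a group mean. The 4 red points lie right of all grey points for 7 members (Hk2, Pkm, Aldoa, Pgk1, Eno1, Ldhb and G6pc3) and left of them for Eno3, against 3.17% and 2.12% of all genes tested.

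Glycolysis-only steps had 7 of 8 members tested. Their median log2 fold change was 0.27 (0.17 without NP replicate 2 and 0.16 without MSC replicate 4), and 3 were higher at an unadjusted p under 0.05 and 0 lower, where 6.57% of all genes were higher and 5.10% lower. Hexokinase traps glucose in the cell as glucose 6-phosphate. Hk2, the inducible hexokinase, had log2 intensities of 8.61, 8.66, 8.51, 8.54 and 8.87 on NP arrays 1 to 5, and of 9.005, 9.03, 9.32 and 8.90 on MSC arrays 1 to 4. Every MSC array was above every NP array, which was so for 3.17% of all genes. The log2 fold change was 0.43 (SE 0.11), with an unadjusted p of 0.00286 and an adjusted p of 0.333 from limma. The Hk2 probe (rn4 chr4:116925790-116925849) was dim, above the filter on 1 of 5 NP arrays and on 4 of 4 MSC arrays, though well above local background on all 9. It thus entered the test through the group in which it was brighter. The size of a dim probe's difference moved with the background, and the log2 fold change of Hk2 was 0.60 with normexp correction and 1.05 with the processed signal, from which background is subtracted. Hk1, the hexokinase found in most tissues, had a log2 fold change of 0.12 (SE 0.17) with overlapping groups, and -0.015 without NP replicate 3.

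Phosphofructokinase commits sugar to glycolysis, and the differences of its 3 isoforms had different signs. Pfkm, the muscle form, read 13.15, 12.56, 12.74, 12.92 and 12.95 in NP and 13.25, 13.30, 13.12 and 13.52 in MSC. The groups overlapped through NP replicate 1, which was above MSC replicate 3. Its log2 fold change was 0.43 (SE 0.13; unadjusted p 0.00752). Pfkp, the platelet form, had 0.27 (SE 0.21) and wide NP values, from 13.24 to 14.31. Single arrays moved it, to 0.44 (unadjusted p 0.0150) without NP replicate 1, 0.17 without NP replicate 2 and 0.16 without MSC replicate 4. Pfkl, the liver form, was lower in mean, at -0.23 (SE 0.12; unadjusted p 0.0831), and its second probe gave -0.24 (SE 0.11).

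Pyruvate kinase closes glycolysis by making pyruvate and ATP. Pkm, the form of muscle and of most adult cells, read 12.59, 12.59, 12.73, 12.62 and 12.70 in NP and 12.90, 12.81, 12.75 and 13.50 in MSC. The groups did not overlap, but MSC replicate 4 stood far above the rest. The log2 fold change was 0.34 (SE 0.14; unadjusted p 0.0378), and without MSC replicate 4 it was 0.17 (unadjusted p 0.0606). With the processed signal it was 0.58 (unadjusted p 0.248), and within the first slide 0.22. Pklr, the form of liver and red cells that the proximal tubule also holds, had -0.29 (SE 0.28), with NP values between 12.33 and 13.67. It was -0.12 without NP replicate 3, -0.17 without NP replicate 2 and -0.46 without NP replicate 4.

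All 13 members of the reversible steps were tested. Their median log2 fold change was 0.14, which was 0.078 with scaling to the 75th percentile, 0.091 with array weights and 0.23 without MSC replicate 2. In the scaled data another probe was kept for Eno1, at 0.071, where the probe of the main fit gave 0.45. At an unadjusted p under 0.05, 5 of the 13 members were higher, against 6.57% of all genes, and 1 lower, against 5.10%. Aldolase splits fructose 1,6-bisphosphate. Aldoa (rn4 chr1:185972062-185972121), its main form, read 15.63, 15.35, 15.40, 15.68 and 15.86 in NP and 16.12, 15.998, 16.13 and 16.29 in MSC. All MSC values were above all NP values. The log2 fold change was 0.55 (SE 0.12; 95% confidence interval 0.29 to 0.81), and the fold was 1.46, the largest of the 27 with the normalization used here, with an unadjusted p of 0.000904. Hk2 was larger with the processed signal and with normexp, G6pc3 with scaling to the 75th percentile, with array weights, within the first slide and without both high-fat arrays, and Pkm within the second slide. Aldoc, the brain form, had -0.11 (SE 0.22), and MSC replicate 2 was well below the other MSC arrays.

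Phosphoglycerate kinase makes the first ATP of glycolysis, and the mutase and enolase follow it. Pgk1 read 17.55, 17.49, 17.59, 17.62 and 17.64 in NP and 17.72, 17.79, 17.75 and 18.04 in MSC. All MSC arrays were higher than the NP arrays, and the log2 fold change was 0.25 (SE 0.09; unadjusted p 0.0160), or 0.16 (unadjusted p 0.111) with quantile normalization. Pgam2, the muscle mutase, read 11.06, 10.37, 10.50, 10.87 and 10.88 in NP and 11.01, 11.11, 10.95 and 11.24 in MSC. NP replicate 1 lay among the MSC values here, and the log2 fold change was 0.35 (SE 0.14; unadjusted p 0.0382), or 0.22 within the second slide. Pgam1, the mutase of most tissues, had 0.14 (SE 0.09). The array files place the Pgam1 probe on chromosome 10 (rn4), while RefSeq has the gene on chromosome 1 (GRCr8), so the probe may read a copy.

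The enolases had differences of opposite sign. Eno1, the common form, read 13.10, 13.18, 13.40, 13.22 and 13.39 in NP and 13.76, 13.74, 13.59 and 13.82 in MSC, with no overlap. The log2 fold change was 0.47 (SE 0.09; unadjusted p 0.000405). This value came from a probe made to the accession X02610 and placed on chromosome 10 (rn4 chr10:53300221-53300280), while the other probes of Eno1 lie on chromosome 5. Those gave 0.14 (SE 0.15) and 0.11 (SE 0.08), so a difference of this size was seen by 1 of 3 probes. With scaling to the 75th percentile the first probe gave 0.45, but the most variable probe was then another, at 0.071. The mean of the probes gave 0.24 (unadjusted p 0.0249). Eno3, the muscle form, read 11.36, 11.50, 11.05, 11.10 and 11.13 in NP and 10.78, 10.83, 10.95 and 11.01 in MSC. Every MSC value was below every NP value, which held for 2.12% of all genes. Its log2 fold change was -0.34 (SE 0.11; unadjusted p 0.0118), with -0.50 within the first slide and -0.14 within the second. Eno2, the neuronal form, had 0.14 (SE 0.13), and 0.27 (unadjusted p 0.0308) without MSC replicate 2. It was 0.40 with the processed signal (unadjusted p 0.376), 0.072 without the filter, where its other probe was kept, and -0.0066 within the first slide.

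Lactate dehydrogenase turns pyruvate into lactate and back. Ldhb, the subunit of heart and of oxidative cells, read 17.59, 17.32, 17.48, 17.66 and 17.66 in NP and 17.79, 17.67, 17.75 and 17.77 in MSC. The groups were only just apart, between NP replicate 5 and MSC replicate 2, and the log2 fold change was 0.20 (SE 0.09; unadjusted p 0.0450). It was 0.13 (unadjusted p 0.336) with quantile normalization, 0.13 with array weights, 0.27 within the first slide and 0.098 within the second. Ldha, the subunit of muscle and of cells short of oxygen, had 0.24 (SE 0.15; unadjusted p 0.152; 0.11 without NP replicate 2), and NP values from 16.12 to 16.96 that reached the MSC range of 16.74 to 16.97.

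Gapdh, often used as a reference gene, had a log2 fold change of 0.12 with a 95% confidence interval of -0.17 to 0.40 (0.0066 without NP replicate 2), and its other probes gave 0.035 and -0.041 (-0.025 and -0.099 with scaling to the 75th percentile). Tpi1, the triose isomerase, had 0.07 (SE 0.15), and Gpi, the hexose phosphate isomerase, had -0.05 (SE 0.07). Gapdh, Pgk1, Eno1, Ldha and Aldoa belong to families with near copies in the rat genome, and a probe can read those too.

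**Figure D2:**
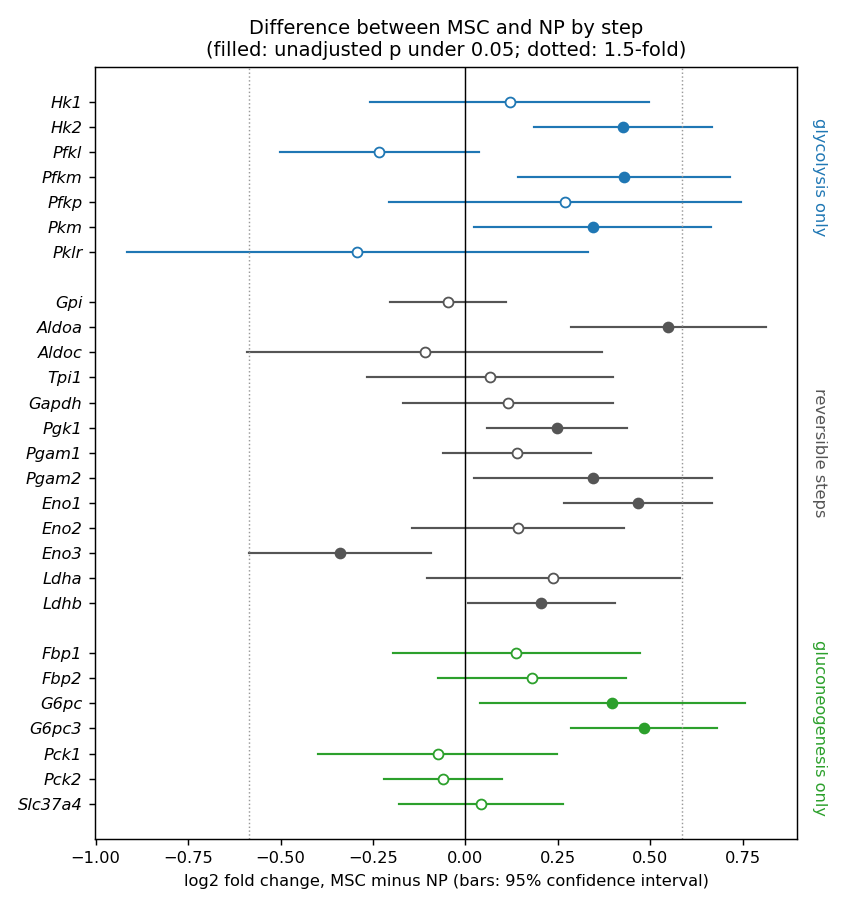
Log2 fold change (MSC minus NP) of the 27 members with 95% confidence intervals from limma, by step. Filled points have an unadjusted p under 0.05 (10 above 0, and Eno3 below), and dotted lines mark a 1.5-fold difference, which no point reaches.

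All 7 gluconeogenesis-only members were tested, and 2 were higher at an unadjusted p under 0.05 and 0 lower, where 6.57% and 5.10% of all genes were. Their median log2 fold change was 0.14, which was 0.014 with quantile normalization, -0.013 with scaling to the 75th percentile and 0.055 without NP replicate 1. In the scaled data the other probe of G6pc was kept, at -0.11, where the probe of the main fit gave 0.39. Glucose 6-phosphatase releases free glucose at the end of the route. G6pc3, its ubiquitous form, read 10.58, 10.42, 10.50, 10.57 and 10.73 in NP and 11.13, 11.09, 10.88 and 11.06 in MSC (rn4 chr10:91262728-91262787). All MSC arrays were above all NP arrays. The log2 fold change was 0.48 (SE 0.09; 95% confidence interval 0.29 to 0.68), with the smallest unadjusted p of the members, 0.000277, and an adjusted p of 0.333 from limma. It was 0.61 within the first slide and 0.32 within the second. G6pc, the form of liver and proximal tubule, read 11.81, 12.47, 12.39, 12.59 and 12.15 in NP and 12.44, 12.78, 12.86 and 12.65 in MSC. The groups overlapped, and the log2 fold change was 0.40 (SE 0.16; unadjusted p 0.0328). A second probe of G6pc gave -0.066 (SE 0.16), and the mean of both 0.17 (unadjusted p 0.232). With scaling to the 75th percentile the probes gave 0.39 and -0.11, so the sign of this gene followed the probe and not the scaling.

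The other members of the route had intervals on both sides of 0. Pck1, the cytosolic carboxykinase that sets the pace of gluconeogenesis, had a log2 fold change of -0.08 (95% confidence interval -0.40 to 0.25), with MSC replicate 1 lowest at 15.61. Pck2, its mitochondrial form, had -0.06 (interval -0.22 to 0.10). Fbp1, the fructose bisphosphatase of liver and kidney, had 0.14 (interval -0.20 to 0.47; -0.0097 with quantile normalization and 0.036 without NP replicate 1), and Fbp2, the muscle form, had 0.18 (interval -0.07 to 0.43). Slc37a4, which carries glucose 6-phosphate into the endoplasmic reticulum, had 0.042 (interval -0.18 to 0.26; -0.013 with scaling to the 75th percentile).

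**Figure D3:**
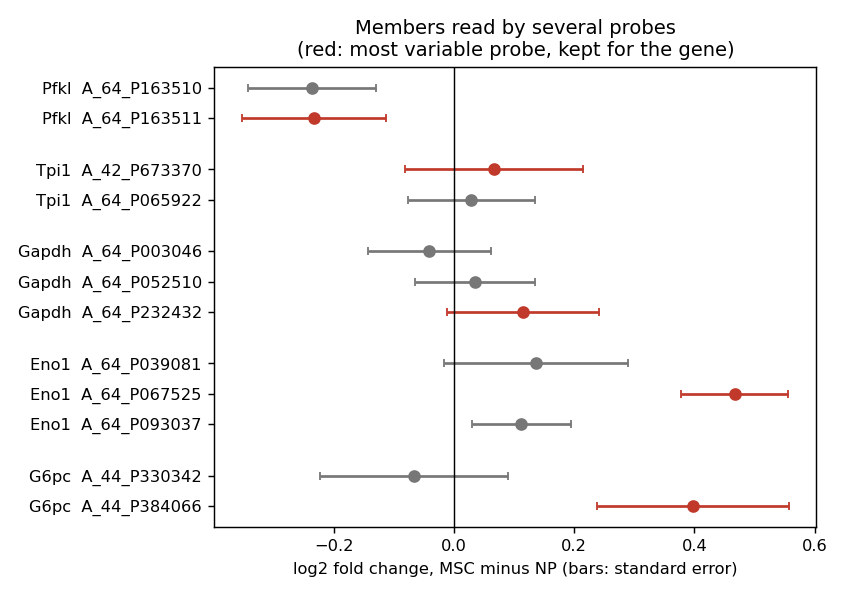
Log2 fold change (MSC minus NP) with its standard error for each probe that passed the filter, in the 5 members read by several such probes. Red marks the most variable probe, which stood for the gene; for Eno1 and G6pc it lies apart from the grey probes, at 0.47 against 0.14 and 0.11, and at 0.40 against -0.07.

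Members below the filter are described by a fit without it. Hk3, the hexokinase of white cells, had a log2 fold change of -0.18 (SE 0.13). The Pfkfb genes encode the enzymes that make and remove fructose 2,6-bisphosphate, the signal that turns phosphofructokinase on and fructose bisphosphatase off. Pfkfb1, the liver form, had 0.63 (SE 0.29; unadjusted p 0.0564), and this came from MSC replicates 3 and 4 at 9.87 and 8.91, while the other 7 arrays lay between 8.05 and 8.43. Those are the arrays with fat scores of 2.72 and 1.90, whose part in the value was not tested. The other Pfkfb1 probe had 0.31 and was highest on MSC replicate 2, at 8.77, with 8.31 and 8.12 on MSC replicates 3 and 4. Pfkfb2 and Pfkfb4 had -0.046 and 0.18. The probes of Pfkfb3 differed in sign, at -0.17 and 0.099.

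Enzymes of opposite direction were also set against each other within each array, as the log2 ratio of the pair, since a joint shift cancels there. Of 8 pairs, 0 had an exact permutation p under 0.05 (two-sided, over all splits of the 9 arrays, smallest possible p 0.00794), and the adjusted p ranged from 0.698 to 0.897. The log2 ratio of Pkm over Pck1 was higher in MSC by 0.42 (exact p 0.103), and that of Pfkl over Fbp1 differed by -0.37 (exact p 0.175; -0.25 without NP replicate 1 and -0.21 without MSC replicate 4). Pfkp over Fbp1 had 0.13, and Pfkm over Fbp1 had 0.29, which was 0.47 (exact p 0.0286) without NP replicate 1 and 0.16 (exact p 0.457) without NP replicate 2. Hk1 and Hk2 over G6pc had -0.28 and 0.028, and Hk1 over G6pc was -0.10 without NP replicate 1 and -0.44 without NP replicate 3. With the other, brighter probe of G6pc these were 0.18 and 0.49, and Hk2 over G6pc was 0.65 with the processed signal (exact p 0.0873). Pklr over Pck1 had -0.22, which ran from -0.50 without MSC replicate 1 to -0.0082 without NP replicate 3. Ldha over Ldhb, the subunit balance, had 0.03. All 8 pairs overlapped between the groups.

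Promoters are shown for 3 members, to set sequence beside these values: G6pc3 and Aldoa, with the smallest p and the largest fold change, and Ldha, a textbook target of the hypoxia factor HIF-1 whose groups overlapped. These members, and the motif, were chosen after their values were seen. The motif was ACGTG or GCGTG on either strand, the core to which HIF-1 binds; CACGTG, the site of other factors, holds ACGTG on both strands and cannot be told from it. Each window is the 250 bases before the gene's start in RefSeq (GRCr8), on the gene's strand, with matches in capitals.
G6pc3 (chr10:87646899-87647148, plus strand): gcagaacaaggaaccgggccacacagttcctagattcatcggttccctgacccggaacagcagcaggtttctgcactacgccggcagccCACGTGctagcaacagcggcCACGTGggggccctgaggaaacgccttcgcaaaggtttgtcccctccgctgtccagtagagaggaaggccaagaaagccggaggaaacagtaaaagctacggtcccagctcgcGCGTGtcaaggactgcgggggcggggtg
Ldha (chr1:106507842-106508091, plus strand): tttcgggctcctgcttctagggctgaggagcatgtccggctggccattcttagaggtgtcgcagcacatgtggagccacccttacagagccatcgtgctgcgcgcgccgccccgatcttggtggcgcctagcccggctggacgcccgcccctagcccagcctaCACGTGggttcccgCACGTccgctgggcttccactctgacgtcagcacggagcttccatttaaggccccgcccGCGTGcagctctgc
Aldoa (chr1:190838022-190838271, minus strand): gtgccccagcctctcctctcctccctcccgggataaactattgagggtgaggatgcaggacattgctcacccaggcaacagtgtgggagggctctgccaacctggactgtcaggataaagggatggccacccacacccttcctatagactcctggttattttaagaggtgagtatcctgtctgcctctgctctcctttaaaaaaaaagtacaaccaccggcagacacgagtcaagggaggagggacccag

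Counted on each strand, G6pc3 had 5 matches and Ldha 4, and the Aldoa window had 0. Among the other members with an unadjusted p under 0.05, Hk2, Pkm, Pgam2, Eno3 and G6pc also had 0, and Pfkm, Eno1 and Ldhb had 1. Pgk1 had no entry. Of the 30 members with a window, 16 (53.3%) held the motif, against 12284 of all 33469 windows (36.7%). Such a match is a run of letters and not a bound site, and its absence says only that these letters are not in this window.

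Other genes that feed or tap the pathway were counted from a list of 61, of which 53 passed the filter, and 0 were called at FDR under 0.05. At an unadjusted p under 0.05, 8 were higher in MSC (15.1%, against 6.57% of all genes) and 3 lower, where 5.10% of all genes were lower. Among 11 transporters tested, 3 were higher (27.3%) and 1 lower. Slc5a2, which reclaims glucose in the proximal tubule, had a log2 fold change of 0.44 (SE 0.13; unadjusted p 0.00585), and all 4 MSC arrays lay between 17.29 and 17.45, above all NP arrays. Slc2a8, a glucose carrier inside cells, had 0.33 (SE 0.10), and Slc16a7, a carrier of lactate and pyruvate, had 0.39 (SE 0.14). Slc16a3, the carrier by which glycolytic cells export lactate, had -0.40 (SE 0.18; unadjusted p 0.0476).

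Among 26 neighbouring enzymes 5 were higher (19.2%, against 6.57% of all genes) and 2 lower (against 5.10%). Khk, which starts fructose breakdown, had 0.27 (SE 0.09), and Mpc1, a subunit of the pyruvate carrier of mitochondria, had 0.22 (SE 0.08). Gpd2, which passes electrons from cytosolic glycerol phosphate to mitochondria, had -0.70 (SE 0.18; unadjusted p 0.00273), with NP values of 12.16, 13.03, 12.61, 12.32 and 12.12 and MSC values of 11.78, 11.77, 11.85 and 11.59. Bpgm, the mutase that makes 2,3-bisphosphoglycerate in red cells, had -0.28 (SE 0.11). The 3 red cell markers had a median log2 fold change of -1.68, and their part in the Bpgm value was not tested. Of 16 regulators, among them Hif1a at 0.09 (SE 0.25) and Ppargc1a at -0.01 (SE 0.23), 0 had an unadjusted p under 0.05 in either direction.

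The members were lastly summed as a mean log2 intensity centred for each gene, given here without a test. The 27 members had scores of -0.05, -0.12, -0.10, -0.07 and -0.01 in NP and 0.09, 0.03, 0.06 and 0.16 in MSC. The groups lay apart, with MSC replicate 4 at the top. This score includes Hk2, which passed the filter through its values on the MSC arrays. The groups also lay apart in the score of the 26 neighbouring enzymes, from -0.084 to 0.0089 in NP and from 0.030 to 0.077 in MSC. Of the 8 collecting duct markers 4 were higher at an unadjusted p under 0.05 (50% against 6.57% of all genes) and 0 were called at FDR under 0.05, with a median log2 fold change of 0.48, NP scores from -0.74 to 0.17 and MSC scores from 0.07 to 0.49. Of 4 markers of distal and connecting tubule 3 were higher at that threshold (median 0.46), and of 6 of thick limb 2 (median 0.24). The 12 proximal tubule markers, 2 of them higher at that threshold, had a median of 0.14, with scores of -0.28 to 0.09 in NP and -0.01 to 0.14 in MSC. Of 7 skeletal muscle markers 2 passed the filter, with scores of -0.17 to 0.36 in NP and -0.26 to 0.05 in MSC. Of 6 stroma markers 1 was higher at that threshold, Col1a1, a collagen chain, at 1.06 (SE 0.29; unadjusted p 0.00447). Their median was 0.37, with scores of -0.92 to 0.59 in NP and -0.37 to 0.52 in MSC, and the seventh, Thy1, did not pass the filter. Of 5 endothelial markers 1 was lower at that threshold (20% against 5.10% of all genes) and 0 higher, with a median of -0.05. This was Vwf, a clotting protein of endothelium, at -0.23 (SE 0.08; unadjusted p 0.0150), with every MSC array below every NP array. Of 4 white cell markers 0 had an unadjusted p under 0.05 in either direction (median 0.20). The part of these cell types in the members' values was not tested.

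**Figure D4:**
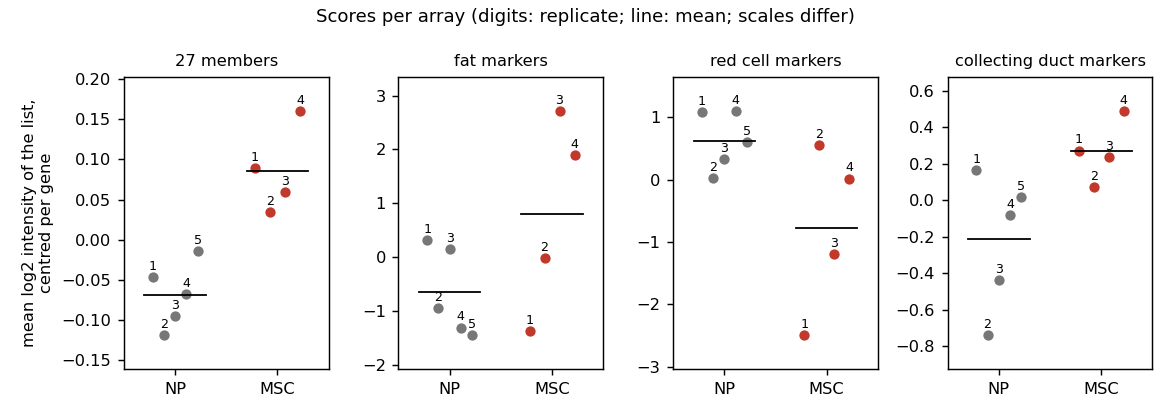
Mean log2 intensity, centred for each gene, of the 27 members and of the fat, red cell and collecting duct markers on each array, with the replicate number at each point and a line at the group mean. Scales differ between panels. The members' scores run from -0.12 to -0.01 in NP and from 0.03 to 0.16 in MSC, while MSC replicates 3 and 4 stand out in fat markers.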

How the data were processed

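The authors deposited spot intensities from Agilent Feature Extraction 10.7.3.1, as mean signal without background subtraction and as processed signal, and a table of log2 values normalized between arrays. Here, after the study's methods, the mean signal of all spots was log2 transformed and normalized by cyclic loess (R 4.3.3, limma 3.58.1). Spots were kept when above 1.1 times the 95th percentile of the negative controls' log2 values on at least 4 arrays. The methods word this limit as a share of that percentile, so the reading departs from what is printed. The filter was applied to spots before they were averaged, an order chosen because it gave the 15723 probes of an earlier analysis of these data, and Pearson's r against the log2 table that the authors deposited was 0.99987 to 0.99997 for each array. Outlier spots were left out, spots of a probe averaged, and the most variable probe kept for each gene. The 5 NP and 4 MSC arrays were compared with limma's empirical Bayes model, with Benjamini-Hochberg adjustment over 13837 genes and a call at FDR under 0.05 and fold over 1.5. Log ratios of pairs had an exact permutation test, and only their differences between groups are given, since the brightness of different probes is not comparable. The limma model and the exact test were tested on simulated data. The members and lists were chosen with earlier results of these data known. All members are named, with values on each array at an unadjusted p under 0.05, and of related genes at most 5 for each direction. The number of arrays limits the precision. Each array held a separate kidney. The study's methods describe no pairing of samples, and the main comparison used none. The 24 alternatives were the processed signal, normexp correction, quantile normalization, scaling to the 75th percentile, no filter, a filter on spots well above background, the mean of probes, the brightest probe, array weights, the slide as a block, each slide alone, the replicate block, the deposited log2 table, each array left out in turn, and both MSC arrays with high fat markers left out. Promoters came from RefSeq (GRCr8), where 30 of 32 members had an entry and G6pc is listed as G6pc1. Probe positions are those of the array files (rn4).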

Additional observations from a re-analysis of the deposited data

Results flagged for a closer look

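Among 76 groups of values examined for an array lying apart from its own group, 2 did so by Dixon's criterion, and chance gives about 1 in 20. In Tpi1, NP replicate 2 read 15.50 while the other NP arrays lay between 16.06 and 16.28, a gap of 0.714 of the group's range. In Aldoc, MSC replicate 2 read 10.28 while the other MSC arrays lay between 10.83 and 10.94, a gap of 0.839 of the range.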

How the results depend on the processing

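The 24 alternatives left 0 members called at FDR under 0.05 in each of the 22 that gave a p. The 10 members higher at an unadjusted p under 0.05 were 6 with 75th percentile scaling (4.94% of all genes, against 6.57%) and 5 without both MSC arrays with high fat markers, an alternative chosen after seeing the data (3.87%). Leaving out each array in turn gave 6 to 10 higher, with 4.89% to 7.34% of all genes (6 without MSC replicate 4, with 5.08%) and 1 to 2 lower, 0 to 1 of the pairs, and medians of 0.16 to 0.33 for glycolysis-only and 0.11 to 0.23 for reversible and 0.055 to 0.21 for gluconeogenesis-only steps. Quantile normalization lowered the gluconeogenesis-only median to 0.014, and the brightest probe lowered it to 0.042. With scaling to the 75th percentile, where the kept probe of G6pc changed too, this median was -0.013. The same scaling gave a median of 0.078 over the members tested. The kept probes of Eno1 and G6pc were then at 0.071 and -0.11, where their probes of the main fit gave 0.45 and 0.39. Quantile normalization brought 1 pair, Pfkm over Fbp1, to an exact p of 0.0317, and the scaling 1 pair, Pkm over Pck1, to an exact p of 0.0476. The glycolysis-only median was 0.14 within the first slide and 0.38 within the second.

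The direction of these values reversed. With 75th percentile scaling G6pc was -0.11 and Hk1 over G6pc 0.21, where the other probe of G6pc was kept, and Slc37a4 was -0.013. With the brightest probe G6pc was -0.066 and Hk1 over G6pc 0.18. Fbp1 was -0.0097 with quantile normalization and Tpi1 -0.0058 with the processed signal. With array weights Gapdh was -0.0054, Pklr 0.027 and Tpi1 -0.041. Within the first slide Eno2 was -0.0066 and Gpi 0.0058, and within the second Aldoc was 0.14, Gapdh -0.049, Slc37a4 -0.00023 and Tpi1 -0.16. Without both high-fat arrays Eno2 was -0.035 and Pklr over Pck1 0.25. With 1 array left out, the ranges that crossed 0 were Aldoc -0.23 to 0.040, Tpi1 -0.060 to 0.13, Hk1 -0.015 to 0.19, Pck1 -0.16 to 0.077, Slc37a4 -0.0045 to 0.13, Hk2 over G6pc -0.073 to 0.14, Pfkp over Fbp1 -0.017 to 0.41 and Ldha over Ldhb -0.038 to 0.10. The cause of these shifts was not tested.

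With a replicate block over the 8 arrays whose number occurs in both groups, 8 members were higher (6.28% of all genes) and 1 lower. The deviations of same-numbered samples had correlations of 0.199, 0.325, -0.346 and 0.045. The NP array closest to MSC replicates 1 and 2 had the same number, and that closest to MSC replicates 3 and 4 had another. Whether the samples were paired cannot be told from these 4 values. The value of Hk2 ranged from 0.34 to 1.05 over the alternatives.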
